A study of Mus musculus with 8 samples.

Results

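Synaptotagmins are proteins of vesicle and plasma membranes that carry C2 domains, and many of them sense calcium for the fusion of vesicles with the membrane. Syt1 and Syt2 trigger fast transmitter release at synapses. Other members act in the release of dense-core vesicles, in the slower phases of synaptic release, or in endocytosis. Syt10 belongs with Syt3, Syt6 and Syt9 to a subfamily whose members form disulfide-linked dimers through cysteines near the amino terminus. In olfactory bulb neurons Syt10 directs the calcium-dependent secretion of IGF1, and in rats seizures raise its mRNA in hippocampus. Part of the literature exchanges the names Syt5 and Syt9. Here the mouse gene symbols are used as the array gives them.

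The genes described are Syt1, Syt2, Syt3, Syt4, Syt5, Syt6, Syt7, Syt10, Syt11 and Syt13. They are read by 13 of the 39429 probes of the array, that is 10 of the 24104 genes named there. All probes that carry one of these names were taken, and none was dropped. Syt10 was selected on its measured difference between the genotypes, and the relatives were chosen to stand beside it. Its difference is therefore given as a description, with no test.

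RNA of the striatum of 8 adult male mice was hybridised to 2-colour arrays. Of these, 4 were heterozygous for a gene-trap insertion in Brd2 (Brd2+/-) and 4 were wildtype, all on a C57Bl/6j background and born to heterozygous parents. Brd2 encodes a bromodomain protein that binds acetylated chromatin. The insertion is inherited and so is not limited to a tissue, and the mice were untreated as far as the labels say. The 4 arrays lay on 1 slide. An array took 2 mice that shared a genotype, replicates 1 and 2 or replicates 3 and 4, with the odd-numbered replicates in Cy3 and the even-numbered in Cy5. Array and genotype can thus be separated only through the spread between the arrays of a genotype.

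Between 16398 and 24867 probes per sample were well above background by the scanner software's flag. Samples on the same array correlated at 0.986 to 0.989 over probes, and samples on different arrays at 0.925 to 0.959. The labels name the tissue as striatum, but a free-text field names the left atrium of the heart. The 10 array genes that mark striatal projection neurons exceeded background clearly in each of the 8 samples, while 1 of 7 atrial muscle genes did so in all 8, and Myl7 and Actc1 in none. Neither of the 2 Brd2 probes had a lower mean in the heterozygotes (11.74 ± 0.07 against 11.46 ± 0.64 in wildtype mice, and 8.01 ± 0.18 against 7.13 ± 0.26, log2 intensity, SD, n = 4 each). Their place relative to the insertion was not determined, so these probes do not check the genotype labels.

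Each probe is a 60-base DNA matching 1 stretch of the transcript, and a result is a statement about that stretch. The 4 printed here, 5′ to 3′ as in the array file, are the Syt10 probe and the more upstream of the probes of Syt3, Syt6 and Syt7. They show which stretch was read, and how little the Syt10 probe shares with those of its relatives. Capitals mark the longest exact run shared with the Syt10 probe. In the Syt10 probe itself, capitals mark the longest run that any other probe on the array shares with it.
Syt10: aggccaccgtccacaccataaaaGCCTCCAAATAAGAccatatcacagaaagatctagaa
Syt3: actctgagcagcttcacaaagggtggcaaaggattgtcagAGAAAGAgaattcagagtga
Syt6: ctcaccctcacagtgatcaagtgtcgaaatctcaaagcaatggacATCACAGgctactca
Syt7: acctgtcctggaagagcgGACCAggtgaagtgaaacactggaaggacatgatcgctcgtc

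The Syt10 probe (A_51_P318830) lies on the minus strand at chr15:89612967-89613026 of mm9 and starts at base 1642 of its transcript. The run in capitals is 14 bases long and is shared with 1 probe, for Agpat4, an acyltransferase of phospholipid synthesis. With 3 flagged spots kept, the Agpat4 probe averaged 11.97 ± 0.18 in the heterozygous mice and 12.24 ± 0.60 in the wildtype mice (SD, n = 4 each). Its difference was −0.27 (SE 0.42). The Syt3 probe (A_55_P2048441) lies on the plus strand at chr7:51654462-51654521, the Syt6 probe (A_55_P2121240) on the plus strand at chr3:103424769-103424828, and the Syt7 probe (A_55_P2044059) on the plus strand at chr19:10522834-10522893. These 3 share runs of 7, 7 and 5 bases with the Syt10 probe. Whether any probe lies in coding sequence or in a UTR was not determined.

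Values below are log2 normalised intensities of each mouse's own channel, given for replicates 1 to 4 in order. Levels of different probes are not comparable, since probes differ in how well they bind.

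Syt10 was lower in all 4 heterozygous mice than in any wildtype mouse. It read 8.26, 8.24, 9.40 and 9.43 in the heterozygous mice, against 11.78, 11.62, 11.02 and 11.61 in the wildtype mice. The heterozygous mean was 8.83 ± 0.67 and the wildtype mean 11.51 ± 0.34 (SD, n = 4 each). The heterozygous mean was thus lower by 6.39-fold, or −2.68 on the log2 scale (SE 0.46). The highest heterozygous reading was below the lowest wildtype reading, and of 18399 probes tested, 9.1% had heterozygous readings wholly below the wildtype ones. Only 4 probes had a lower difference than Syt10, and across all probes the 1st and 99th percentiles of the difference were −1.16 and 1.11. Because the choice of Syt10 used this contrast, nothing is read from that share or from this rank. In tissue RNA, fewer cells that express a gene and less of its RNA per cell cannot be told apart.

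The heterozygous mice of the 2 arrays differed from each other in Syt10. The array of replicates 1 and 2 averaged 8.25 and the array of replicates 3 and 4 averaged 9.41, against 11.70 and 11.32 on the wildtype arrays. The difference was −2.57 among Cy3 samples and −2.78 among Cy5 samples, so both dyes gave a lower reading in the heterozygotes. It was −2.09 without the first heterozygous array and −3.26 without the second.

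The unnormalised spot showed the same separation. The mean Syt10 signal was 370.7, 367.4, 453.9 and 570.1 scanner units in the heterozygous mice, against 4490.3, 3256.3, 1774 and 2803.1 in the wildtype mice. These signals were 10.35 to 23.28 times the local background in the heterozygous mice and 84.94 to 249.46 times in the wildtype mice. The spot was well above background in all 8 samples and carried no outlier flag in any. In the table that the authors deposited, the ratio of the spot to the median spot of its sample was 1.90, 0.776, 4.14 and 1.69 in the heterozygous mice, against 28.1, 9.55, 14.8 and 9.46 in the wildtype mice.

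**Figure D1:**
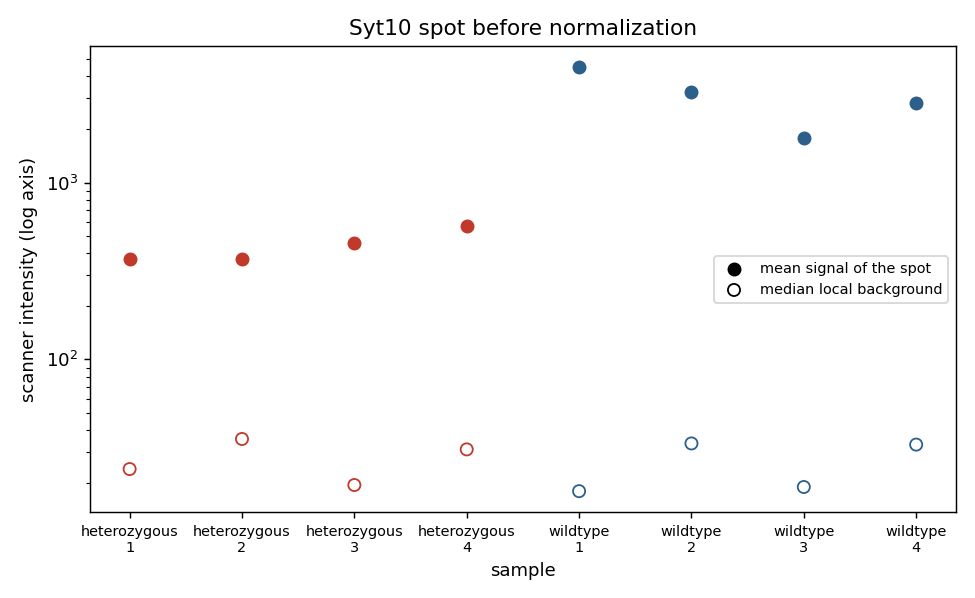
Mean scanner signal of the Syt10 spot (filled) and its median local background (open), on a log axis, for each heterozygous and wildtype mouse before any normalisation. The heterozygous signals lie between 367.4 and 570.1 units and the wildtype signals between 1774 and 4490.3, with all backgrounds below both.

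The region of the slide around the Syt10 spot moved with the genotype too. For the block of 28 rows and 17 columns that holds it, the deviation of each spot from its own mean over the 8 samples was taken. The block medians were −0.27, −0.30, −0.15 and −0.19 in the heterozygous mice, against 0.12, 0.21, 0.19 and 0.22 in the wildtype mice. With such regional trends removed from every array, the Syt10 difference was −2.26 (SE 0.43). Over the 13 alternatives that left out no single mouse or array, it ranged from −2.96 in the authors' deposited values to −2.26.

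**Figure D2:**
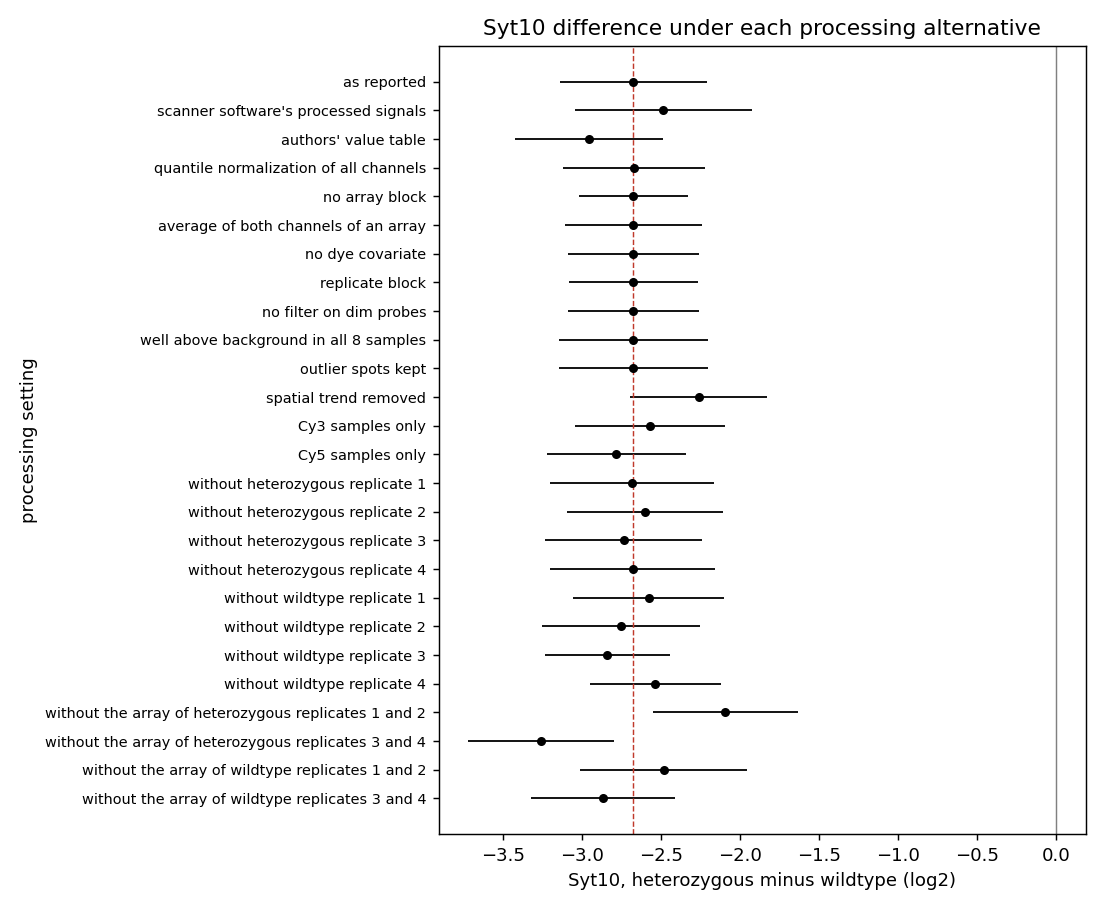
Syt10 difference, heterozygous minus wildtype (log2, x axis), under each processing setting (y axis), with bars of 1 SE and the reported −2.68 as a dashed line. Every setting lies below 0, with the smallest size without the array of heterozygous replicates 1 and 2 (−2.09).

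No probe of the relatives of Syt10 passed the test across all probes. At an adjusted p of 0.05 (limma, Benjamini-Hochberg over all 18399 probes) 0 probes of the array were called, a share of 0%, while 8.05% had an unadjusted p under 0.05. Of the 13 synaptotagmin probes, 8 had an unflagged reading in all 8 samples and entered this fit. Syt10 is among them, and no test is read for it. The other 5, for Syt1, Syt4, Syt5, Syt11 and 1 of the 2 Syt3 probes, had between 1 and 5 spots that the scanner software marked as outliers. Of the 7 probes tested for relatives, 3 had a positive and 4 a negative difference, with a median of −0.06, beside −0.02 over all probes tested. None of the 7 had an unadjusted p under 0.05, their adjusted p ran from 0.888 to 0.984, and in all of them the genotypes overlapped.

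The 5 probes with flagged spots were read from a second fit that kept all spots and tested 22288 probes. There, 0% of probes were called at an adjusted p of 0.05 and 8.83% had an unadjusted p under 0.05. Heterozygous readings lay wholly below wildtype readings for 9.11% of probes and wholly above for 9.14%. Of the 104 synaptotagmin readings, 10 carried an outlier flag. Among the 12 probes of relatives in this fit, 2 were wholly lower in the heterozygotes, those of Syt4 and Syt5, and 0 wholly higher. Of these 12, 1 had an unadjusted p under 0.05, and adjusted p ran from 0.467 to 0.98.

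**Figure D3:**
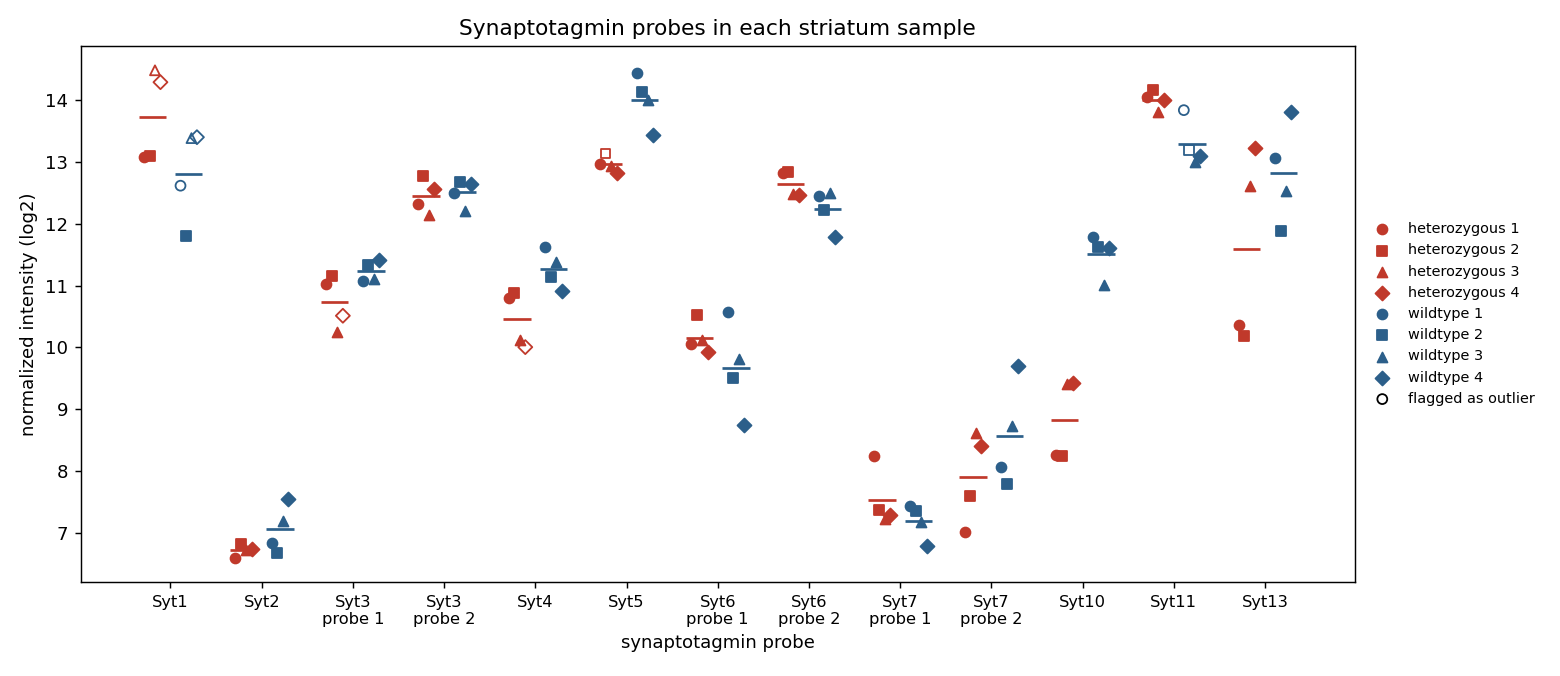
Log2 normalised intensity (y axis) of each of the 13 synaptotagmin probes (x axis) in the 4 heterozygous mice (red, left) and the 4 wildtype mice (blue, right), with lines at group means, marker shapes for replicates and open markers for spots flagged as outliers. The groups of Syt10, which was chosen for its difference, are the farthest apart. The Syt4 and Syt5 groups do not overlap either, and those of the other probes do.

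Syt3 and Syt6 are the closest relatives of Syt10 on this list. Neither had a difference near that of Syt10, which was chosen on its difference, so nothing is read from that gap. Syt3 takes part in the internalisation of AMPA receptors. Its downstream probe (A_55_P1975973) read 12.32, 12.77, 12.14 and 12.56 in the heterozygous mice, against 12.50, 12.68, 12.20 and 12.65 in the wildtype mice. The difference was −0.06 (SE 0.25, 95% interval −0.62 to 0.50, adjusted p = 0.984). The wildtype readings all lay within the heterozygous range.

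The upstream Syt3 probe, printed above, read 11.02, 11.16, 10.26 and 10.51 in the heterozygous mice, the last of these flagged, against 11.08, 11.33, 11.10 and 11.42 in the wildtype mice. With all spots kept the difference was −0.49 (SE 0.28, limma adjusted p = 0.687). The heterozygous mice of replicates 1 and 2 lay among or just below the wildtype mice, and those of replicates 3 and 4 below all of them.

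Syt6 is known for its part in the acrosome reaction of sperm and is also made in brain. Its downstream probe (A_55_P1965219) read 12.81, 12.84, 12.48 and 12.46 in the heterozygous mice, against 12.45, 12.23, 12.50 and 11.78 in the wildtype mice. The difference was 0.41 (SE 0.38, limma adjusted p = 0.888), and 1 wildtype mouse read above the lower pair of heterozygous mice. The upstream probe read 10.06, 10.53, 10.12 and 9.92 in the heterozygous mice, against 10.58, 9.51, 9.82 and 8.75 in the wildtype mice. Its difference was 0.49 (SE 0.72, limma adjusted p = 0.942), and it was −0.11 among Cy3 samples and 1.095 among Cy5 samples. The wildtype mice spanned a wider range than the heterozygous mice, which all lay inside it.

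Syt1, Syt2 and Syt5 are the relatives tied to fast, calcium-triggered release. Syt1, the main sensor of forebrain synapses, read 13.08, 13.09, 14.48 and 14.29 in the heterozygous mice, against 12.62, 11.80, 13.38 and 13.40 in the wildtype mice. Of these 8 readings 5 were flagged, all but those of heterozygous replicates 1 and 2 and wildtype replicate 2. With all spots kept the difference was 0.93 (SE 0.59, limma adjusted p = 0.730), and on both genotypes the array of replicates 3 and 4 read higher. The slide region around the Syt1 spot had a block median of 0.67 in heterozygous replicate 3. With regional trends removed the Syt1 difference was 0.745 (SE 0.56). Syt2, which serves the same role in fast-spiking and hindbrain neurons, was close to its background. It read 6.60, 6.83, 6.74 and 6.75 in the heterozygous mice, against 6.85, 6.68, 7.20 and 7.55 in the wildtype mice, and was well above background in 2 of 4 mice of each genotype. Its difference was −0.34 (SE 0.32, limma adjusted p = 0.891), with overlapping groups.

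Syt5, a relative of Syt1 and Syt2 found on dense-core vesicles, was the relative with the lowest unadjusted p. It read 12.97, 13.14, 12.94 and 12.81 in the heterozygous mice, the second of these flagged, against 14.44, 14.13, 14.00 and 13.43 in the wildtype mice. With all spots kept the difference was −1.04 (SE 0.38, 95% interval −1.90 to −0.17, limma adjusted p = 0.467). Every heterozygous mouse read below every wildtype mouse, as for 9.11% of all probes, and the difference did not pass the test over all probes.

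Syt7 has high calcium affinity and acts in asynchronous release, in facilitation and in lysosome exocytosis. Its upstream probe was dim, and well above background in 3 of 4 mice of each genotype. It read 8.24, 7.38, 7.23 and 7.29 in the heterozygous mice, against 7.44, 7.36, 7.18 and 6.79 in the wildtype mice. The difference was 0.34 (SE 0.45, limma adjusted p = 0.935), and heterozygous replicate 1 stood above the other 7 mice. The downstream probe (A_51_P359173) read 7.02, 7.59, 8.61 and 8.41 in the heterozygous mice, against 8.07, 7.79, 8.74 and 9.71 in the wildtype mice. Its difference was −0.66 (SE 0.71, limma adjusted p = 0.910). The 2 Syt7 probes thus had differences of opposite sign, neither past the test, and in the downstream probe replicates 3 and 4 read higher than replicates 1 and 2 in both genotypes.

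Syt4, Syt11 and Syt13 bind calcium weakly or not at all through at least 1 of their C2 domains. Syt4, whose mRNA is induced by neuronal activity, read 10.81, 10.89, 10.12 and 10.01 in the heterozygous mice, the last of these flagged, against 11.62, 11.14, 11.38 and 10.91 in the wildtype mice. With all spots kept the difference was −0.81 (SE 0.39, limma adjusted p = 0.609). The groups did not overlap, by a gap between 10.89 in the heterozygous mice and 10.91 in the wildtype mice. This gap was smaller than the shift of the slide region around the spot. The block medians were −0.16, −0.11, −0.15 and −0.18 in the heterozygous mice, against 0.01, 0.02, 0.27 and 0.23 in the wildtype mice. With regional trends removed the Syt4 difference was −0.52 (SE 0.355), and whether the groups then stayed apart was not determined. Syt11, which restrains endocytosis in neurons, read 14.05, 14.15, 13.81 and 14.00 in the heterozygous mice, against 13.84, 13.20, 13.00 and 13.10 in the wildtype mice. The first 2 wildtype readings of Syt11 were flagged, and with all spots kept the difference was 0.72 (SE 0.43, limma adjusted p = 0.712). Wildtype replicate 1 read above heterozygous replicate 3, so the groups overlapped.

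Syt13, which lacks the calcium-binding residues of its relatives, had the largest SE of the 13 probes. It read 10.37, 10.19, 12.62 and 13.23 in the heterozygous mice, against 13.07, 11.89, 12.52 and 13.81 in the wildtype mice. Replicates 1 and 2 of the heterozygotes, which shared an array, were low, and the other heterozygotes lay among the wildtype mice. The difference was −1.22 (SE 1.16, limma adjusted p = 0.891), and it was 0.10 without that array and −2.54 without the other heterozygous array. The slide region around the Syt13 spot was also low in heterozygous replicates 1 and 2. Its block medians were −0.42, −0.42, 0.35 and 0.09 in the heterozygous mice, against −0.05, −0.055, 0.16 and 0.15 in the wildtype mice. With regional trends removed the Syt13 difference was −1.07 (SE 1.05).

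**Figure D4:**
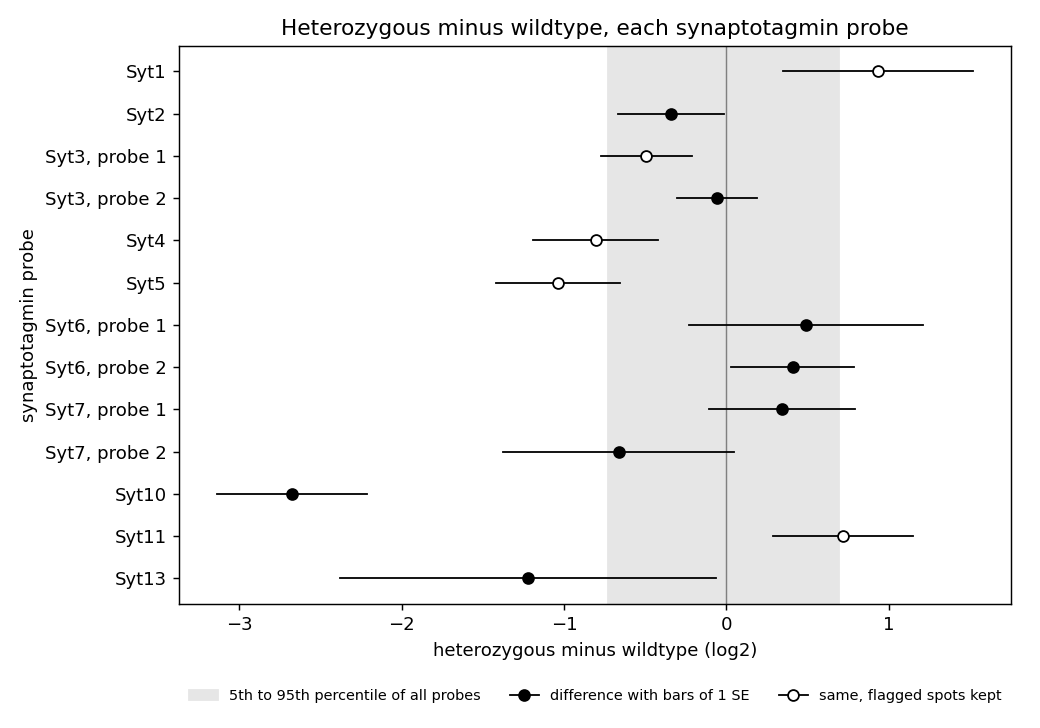
Heterozygous minus wildtype difference (log2, x axis) of each synaptotagmin probe (y axis) with bars of 1 SE, filled where no spot was flagged and open where flagged spots were kept, over a grey band from the 5th to the 95th percentile of all probes tested (−0.73 to 0.69). Syt10, which was chosen for its difference, lies at −2.68, and the relatives lie between −1.22 and 0.93.

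The remaining members of the family and its C2-domain relatives were counted from a list of 19 genes. Of the 14 tested, 6 had a positive and 8 a negative difference, with a median of −0.16, 2 at an unadjusted p under 0.05 and 0 past the adjusted test. Esyt2, a tether between endoplasmic reticulum and plasma membrane, averaged 9.17 ± 0.28 in the heterozygous mice and 8.38 ± 0.28 in the wildtype mice, a difference of 0.78 (limma adjusted p = 0.525). Syt9, the remaining member of the Syt10 subfamily, averaged 8.43 ± 0.97 in the heterozygous mice and 9.72 ± 0.77 in the wildtype mice, a difference of −1.29 (SE 0.54, limma adjusted p = 0.607). Rph3a, a Rab3 effector, had a difference of −0.73 (limma adjusted p = 0.726). Syt8 and Syt14 were well above background in no sample.

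Synaptotagmins act on the SNARE proteins, which drive fusion. Of 32 genes of SNAREs and their regulators, 23 were tested, with 9 positive and 14 negative differences, a median of −0.07, 1 at an unadjusted p under 0.05 and 0 past the adjusted test. Snap29, a SNARE of intracellular membranes, had a difference of −1.04 and Stx4a, a syntaxin of the plasma membrane, one of 0.70. Their limma adjusted p were 0.660 and 0.688.

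Of 8 genes of neuronal activity and IGF1 signalling, 7 were tested, with 4 positive and 3 negative differences and a median of 0.02. None had an unadjusted p under 0.05 or passed the adjusted test. Heterozygous readings of Nr4a1 lay wholly above wildtype ones, as for 7.86% of all probes, and the other genes tested overlapped. As log2 of added intensities, 7 of the 8 genes summed to 14.08 to 15.07 in the heterozygous mice and 13.32 to 13.70 in the wildtype mice. Such a sum follows its brightest genes. Of the 7 tested, Nr4a1 was the brightest, averaging 13.88 in the heterozygous mice and 12.27 in the wildtype mice. The SNARE list summed to 16.94 to 17.33 in the heterozygous mice and 16.89 to 17.36 in the wildtype mice, with overlap. The list of C2-domain relatives summed to 13.30 to 13.44 in the heterozygous mice and 13.44 to 13.55 in the wildtype mice. The activity-induced transcription factors Nr4a1, Fos and Npas4 had differences of 1.61, 1.05 and 0.54, with limma adjusted p of 0.675, 0.733 and 0.899. Igf1, whose product is the cargo of Syt10 vesicles, averaged 10.63 ± 0.25 in the heterozygous mice and 10.62 ± 0.36 in the wildtype mice.

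Genes near Syt10 were read within 1 Mb of its probe. Of 54 such probes, 32 were tested, 17 with a positive and 15 with a negative difference, from −1.02 to 1.13 with a median of 0.03. Heterozygous readings lay wholly below wildtype readings for 3 of these 32 probes and wholly above for 3, where 9.1% and 7.86% of all probes did so. The 26 tested genes with a symbol were Zbed4, Alg12, Creld2, Pim3, Panx2, 9030419F21Rik, Trabd, Tubgcp6, Selenoo, Hdac10, Mapk12, Mapk11, Dennd6b, Ppp6r2, Lmf2, Sco2, Tymp, Ncaph2, Odf3b, Klhdc7b, Chkb, Shank3, Acr, Rabl2, Alg10b and Cpne8. The lowest was Chkb, a choline kinase, at −1.02, and the highest Hdac10, a deacetylase, at 1.13. The nearest tested neighbour on the side of lower coordinates was Rabl2, at 0.19, and on the other side the more distant Alg10b, at −0.22. No neighbour had a difference as large as that of Syt10, but since Syt10 was chosen on its difference, nothing is read from this.

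The genes whose readings followed those of Syt10 most closely over the 8 mice were Ube2q1, Igfbp3, Fxc1, Krtap4-8 and Sdhb, with Pearson correlations of 0.988 to 0.991. The 8 points fall into the 2 genotypes and share their 4 arrays, so this is a description of likeness only. The Igfbp3 probe, for a protein that binds IGF1, had a difference of −0.85 and that of Sdhb, a subunit of respiratory complex II, −0.97. Probes picked for likeness to Syt10 share its direction by that choice, so nothing is read from these differences. The Igfbp3 probe read only 6.81 to 7.31 in the heterozygous mice.

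Markers of other cells were summed per mouse as log2 of the added intensities of genes in each list. Not every gene of a list entered its sum, and a sum follows its brightest genes. Among single probes, 9.1% lay wholly lower and 7.86% wholly higher in the heterozygotes. No such share is given for sums, so nothing is read from a lack of overlap. The sums held 6 of 10 striatal projection neuron genes, 4 of 5 microglial, 3 of 4 endothelial and 7 of 7 atrial genes. Striatal projection neuron markers summed to 17.80 to 18.25 in the heterozygous mice and 16.64 to 17.73 in the wildtype mice, without overlap. By gene, 5 of the 7 tested had a positive difference, with a median of 0.47. The brightest of the 7, Ppp1r1b and Penk, had differences of 0.47 and 0.855, and Adora2a and Bcl11b had differences of −0.33 and −0.29. Microglial markers were also without overlap, at 13.10 to 13.37 in the heterozygous mice and 12.90 to 13.03 in the wildtype mice, but only C1qa (0.56) and Cx3cr1 (0.34) of the 5 tested had a positive difference, and the median was −0.03. Endothelial markers summed to 11.06 to 11.76 in the heterozygous mice and 12.21 to 12.48 in the wildtype mice. Of the 3 tested, Cldn5 had a difference of −1.07, Cdh5 one of 0.48 and Pecam1 one of −0.01. Atrial muscle genes, of which 1 of 7 was well above background in all samples, summed to 10.04 to 10.42 in the heterozygous mice and 10.54 to 12.21 in the wildtype mice. Of the 3 atrial genes tested, Myl4 averaged 8.55 ± 0.68 in the heterozygous mice and 10.04 ± 1.28 in the wildtype mice, and Nppa and Tnnt2 had differences of −0.27 and −0.01. No marker gene passed the adjusted test.

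The sums for other brain regions overlapped between the genotypes. Cortical excitatory neuron markers, with 7 of 8 genes in the sum, reached 11.06 to 11.82 in the heterozygous mice and 11.41 to 13.57 in the wildtype mice. Of the 7 tested, 6 had a negative difference, with a median of −0.85. Septal markers summed to 10.37 to 11.67 in the heterozygous mice and 10.40 to 13.35 in the wildtype mice, and all 5 had a negative difference, with a median of −0.66. Of the suprachiasmatic nucleus list, Prok2 and Six6 were well above background in no sample, and the list summed to 8.48 to 9.51 in the heterozygous mice and 8.97 to 9.87 in the wildtype mice. Olfactory bulb output neuron markers summed to 8.40 to 11.04 in the heterozygous mice and 8.23 to 8.76 in the wildtype mice. The lists for striatal interneurons, thalamus, oligodendrocytes, astrocytes and choroid plexus overlapped as well. The part of any of these cell types in the synaptotagmin readings was not tested.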

How the data were processed

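RNA of 8 striata was measured on 2-colour Agilent arrays. Per the file headers, Agilent Feature Extraction 11.0.1.1 wrote the deposited intensity of every spot and of its local background, by channel. A deposited table of the authors gives a linear ratio: each background-subtracted spot was divided by its column's median, as 100% of values showed when set against the scanner files, so every column has a median of 1. Log2 values were derived here, from these deposited intensities.

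Each mouse's own channel was used. Background was corrected with normexp (offset 50), then loess within arrays, without control spots, and Aquantile across them (R 4.3.3, limma 3.58.1). Spots flagged as outliers were left out. A probe was tested if well above background in at least 4 of 8 samples with a value in all 8. Genotypes were compared with lmFit and eBayes, with dye as covariate and array as random block (estimated correlation 0.81), adjusted by Benjamini-Hochberg over 18399 probes. The mice are separate animals, but both mice of an array share a genotype. The number of arrays therefore limits the precision, as well as the number of mice. The fit was tested on simulated data.

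The members and lists were chosen with earlier results of these data known. Every member probe is named. Of the pathway lists, at most 3 genes by lowest unadjusted p are named, besides Igf1, added after its values were seen, and 1 gene under this rule is not reported here. All tested genes within 1 Mb of Syt10 are named, with the 5 most like it. A gene with several probes was read by its brightest. Coordinates are those of the files, on mm9, per the file headers. RefSeq (GRCm38.p6) gave names for 27234 of 39429 probes. Same-numbered mice of the genotypes were not paired by any label, and their deviations from the group means correlated at 0.04, 0.255, 0.164 and 0.125. Alternatives changed the background correction, normalisation, block, dye, filters and samples.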

Additional observations from a re-analysis of the deposited data

Results flagged for a closer look

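The upstream Syt7 probe (A_55_P2044059) read 8.24 in heterozygous replicate 1, while the other heterozygous mice read 7.23 to 7.38. The gap to the nearest of these was 0.849 of the group's range, above Dixon's 95% critical value for 4 samples. This was 1 of 26 groups of synaptotagmin readings examined, and chance gives about 1 in 20. The mouse that shared its array, heterozygous replicate 2, read 7.38.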

How the results depend on the processing

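The Syt10 difference stayed negative under every alternative run. It moved by more than the SD pooled over both groups, to −2.09 and −3.26, on dropping the array of heterozygous replicates 1 and 2 or that of replicates 3 and 4. Leaving out 1 mouse at a time gave −2.84 to −2.54. With the replicate number as a block it was −2.68, with 0 probes called overall and so 0 of the relatives' probes. The labels do not pair the mice.

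The count of all probes called, 0, became 539 without the array block, which takes the mice of an array as independent, and 1 in the authors' deposited value table. It was 0 to 1 on leaving out 1 mouse (1 without wildtype replicate 4). It was 23 without the array of wildtype replicates 1 and 2, but 14 without wildtype replicates 3 and 4, and 5 without heterozygous replicates 3 and 4. The count of synaptotagmins, 0, became 1 without the array block, from which nothing is read since that probe is Syt10, chosen on this contrast, and stayed at 0 on leaving out any 1 mouse. In the fit with flagged spots kept, Syt5 had a limma adjusted p of 0.0393 without the array block. This setting also takes the mice of an array as independent. With flagged spots left out it called 539 of 18399 probes, and its count with flagged spots kept is not given. Nothing is therefore read from it for Syt5.

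Of the relatives' differences, 284 recomputed values kept their sign and side of the threshold and 8 changed sign, in 3 probes. The downstream Syt3 probe, at −0.06, became 0.212 with the scanner software's processed signals, 0.013 with the spatial trend removed, 0.004 in Cy5 samples, 0.024 on dropping the array of wildtype replicates 1 and 2, and 0.04 on dropping that of heterozygous replicates 3 and 4. Leaving out 1 mouse gave −0.117 to 0.007, the last without wildtype replicate 1. The upstream Syt6 probe became −0.11 in Cy3 samples. Syt13 became 0.10 on dropping the array of heterozygous replicates 1 and 2, against −2.54 on dropping that of replicates 3 and 4. The cause was not tested. Dim probes limit the reading of Syt2, near background in both genotypes, and of the upstream Syt7 probe.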
